A study of Mus musculus with 6 samples.

Results

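NF-κB is a family of dimeric transcription factors, and the 10 genes described here encode its 5 subunits (Nfkb1, Nfkb2, Rela, Relb and Rel) and 5 proteins that hold it back or modify it (Nfkbia, Nfkbib, Nfkbie, Bcl3 and Tnfaip3). Genes were selected on their names, with the log2 fold changes between the 2 marrow regions already known, from a count table of 54532 genes, and all 10 were among the 13352 genes counted highly enough to be tested. Since the family was chosen by values of this same comparison, the differences are given as a description and not as a test. The libraries were made from AE9a leukemia cells, which are C57BL/6 marrow progenitors transformed by a retrovirus carrying AML1-ETO9a, a truncated form of the AML1-ETO fusion of t(8;21) leukemia. Cells were taken from mice of the third round of transplantation, and both regions share this origin. Central bone marrow (CBM) was flushed from femurs and tibias, and endosteal bone marrow (EBM) was released from the flushed bones by collagenase I, with 3 libraries made from each region. The labels mention cell sorting without a marker. The mice purchased for the study were females of 6 to 8 weeks, and the age of the leukemic mice at collection, the number of mice behind each library and whether same-numbered libraries share a mouse are not stated. The transgene is driven by a virus in transplanted cells, and the flushed cells did not go through the digestion, so region and digestion cannot be told apart here.

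In resting cells NF-κB dimers are kept in the cytoplasm by IκB proteins. In the classical route a kinase complex of Chuk, Ikbkb and Ikbkg marks IκB for degradation and frees dimers such as those of Rela with the processed Nfkb1 product. In the alternative route the kinase Map3k14 and Chuk drive the processing of the Nfkb2 precursor, which pairs mainly with Relb. Many genes of the inhibitors and of some subunits carry κB sites and are themselves induced by NF-κB, which makes the pathway a feedback circuit. In myeloid leukemia the pathway is known for supporting survival of leukemia cells and for cross-talk with marrow stroma.

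Each library held 16436526 to 19462964 counts, and 3 counts, the floor used, equal 0.149 to 0.193 CPM (counts scaled to library size, with TMM factors). Floors cover counting error only. Kit, which marks these immature cells, was between 196 and 239 CPM in all 6 libraries. Mpo, a granule enzyme of immature myeloid cells, was between 1.65 and 14.9 CPM in CBM and between 5.53 and 35.8 CPM in EBM. All 9 markers of leukemia and immature myeloid cells had a positive log2 fold change in EBM, where 50.4% of all genes tested had one. The libraries of the regions overlapped for each of the 9. The 10 osteoblast and stromal markers summed to between 0.396 and 1.16 CPM in CBM and between 0.514 and 1.56 CPM in EBM, with Sp7 and Alpl at 0 counts in every library, and the 6 macrophage markers summed to at most 3.05 CPM. The 7 neutrophil markers varied more, from 3.37 to 224 CPM in CBM and from 34.3 to 160 CPM in EBM. Hba-a1, a globin gene of red cells, was between 639 and 3051 CPM in CBM and between 808 and 2078 CPM in EBM. Of the osteoclast markers, Ctsk, Calcr and Oscar had at most 4 counts in a library. Acp5, a phosphatase of osteoclasts, was between 258 and 565 CPM over the 6 libraries. These ranges overlapped between the regions, and the part of other cells in the results was not tested. CBM replicate 2 had the highest neutrophil sum. It was the lowest CBM library for 3 of the 10 genes and for 38.1% of all genes tested. Of 12 genes that respond to tissue dissociation, 7 had a positive log2 fold change in EBM, where 50.4% of all genes tested had one. In every EBM library 3 (Junb, Hspa1a and Hspa1b) lay above CBM, where 7.47% of all genes did. Another 1 (Dusp1) lay below, where 7.65% did. Hspa1b, a heat shock gene, was between 3.37 and 9.50 CPM in CBM and between 50.3 and 112 CPM in EBM, and Dusp1, an immediate early phosphatase, was between 595 and 1329 CPM in CBM and between 382 and 447 CPM in EBM. The part of dissociation in the values given for the NF-κB genes was not tested. Fewer cells of a type and less RNA per cell cannot be told apart in such bulk libraries.

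To show the DNA at the start of these genes, the RefSeq promoter windows on GRCm38.p6, of 300 bases each with 250 before the transcription start, were searched on both strands for the κB consensus. The consensus has 10 bases, with 3 G, 1 purine, 2 of any base, 2 pyrimidines and 2 C, so that a match can overlap its own reverse complement. Windows were given for 8 of the 10 genes, all but Nfkb1 and Relb. At least 1 match lay in a window of 6 of these 8 genes, whereas 9.55% of the 27025 genes with a window and 12.1% of the 9064 such genes tested had one. The last 150 bases before the start are shown for 2 subunits and 2 inhibitors with a match there, to let the matches be read in their context: Nfkb2 (chr19:46304587-46304736, plus strand), Rel (chr11:23770970-23771119, minus strand), Nfkbia (chr12:55492648-55492797, minus strand) and Nfkbie (chr17:45555550-45555699, plus strand). Each is written 5′ to 3′ on the strand of the gene, with matches in capitals.
Nfkb2: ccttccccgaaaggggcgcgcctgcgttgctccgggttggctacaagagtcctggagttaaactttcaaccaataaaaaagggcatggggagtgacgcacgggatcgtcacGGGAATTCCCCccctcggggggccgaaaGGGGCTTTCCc
Rel: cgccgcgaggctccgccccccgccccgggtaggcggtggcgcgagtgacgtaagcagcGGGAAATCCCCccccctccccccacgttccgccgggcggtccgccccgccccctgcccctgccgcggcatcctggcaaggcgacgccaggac
Nfkbia: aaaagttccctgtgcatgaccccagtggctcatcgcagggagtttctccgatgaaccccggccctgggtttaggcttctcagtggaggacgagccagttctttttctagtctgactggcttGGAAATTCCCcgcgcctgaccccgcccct
Nfkbie: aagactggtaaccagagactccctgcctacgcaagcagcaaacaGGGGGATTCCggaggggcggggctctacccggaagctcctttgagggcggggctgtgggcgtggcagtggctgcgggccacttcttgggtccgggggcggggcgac

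In Nfkb2 the first run, GGGAATTCCCC, began 39 bases before the start and held 2 overlapping matches, and the second, GGGGCTTTCC, began 11 bases before it. Windows of later starts of Nfkb2 held GGAATGTCCC at chr19:46305459-46305468 and GGGACTTTCC at chr19:46305705-46305714. The run in Rel, GGGAAATCCCC, began 92 bases before the start, that in Nfkbia, GGAAATTCCC, 29 bases and that in Nfkbie, GGGGGATTCC, 106 bases. Tnfaip3 had GGGACACCCC and GGAAATCCCC at 125 and 12 bases before its start. Bcl3 had GGGAAGTCCC just inside its transcribed region, at chr7:19822744-19822753. Rela and Nfkbib had no match, which says only that these letters are not in the window. A match is not evidence that a factor binds there.

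Of the 10 genes, 8 had all EBM libraries above the CBM libraries, where 7.47% of all genes tested did, none had them all below, where 7.65% did, and the other 2, Nfkb1 and Tnfaip3, overlapped between the regions. All 10 log2 fold changes were above 0, where 50.4% of all genes had one, with a median of 0.99 against 0.0017 over all genes tested. In edgeR's quasi-likelihood fit 0 of the 13352 genes passed an adjusted p of 0.05, or 0% of all, so none of the 10 did. At an unadjusted p under 0.05, 8 of the 10 were higher in EBM, where 4.01% of all genes were, and 7.91% of all genes passed in either direction. DESeq2 called 6 of the 10 at an adjusted p of 0.05, all higher in EBM, where it called 1.07% of genes higher and 0.366% lower. Because this contrast guided the choice of the genes, these counts describe the family and carry no weight of their own.

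**Figure D1:**
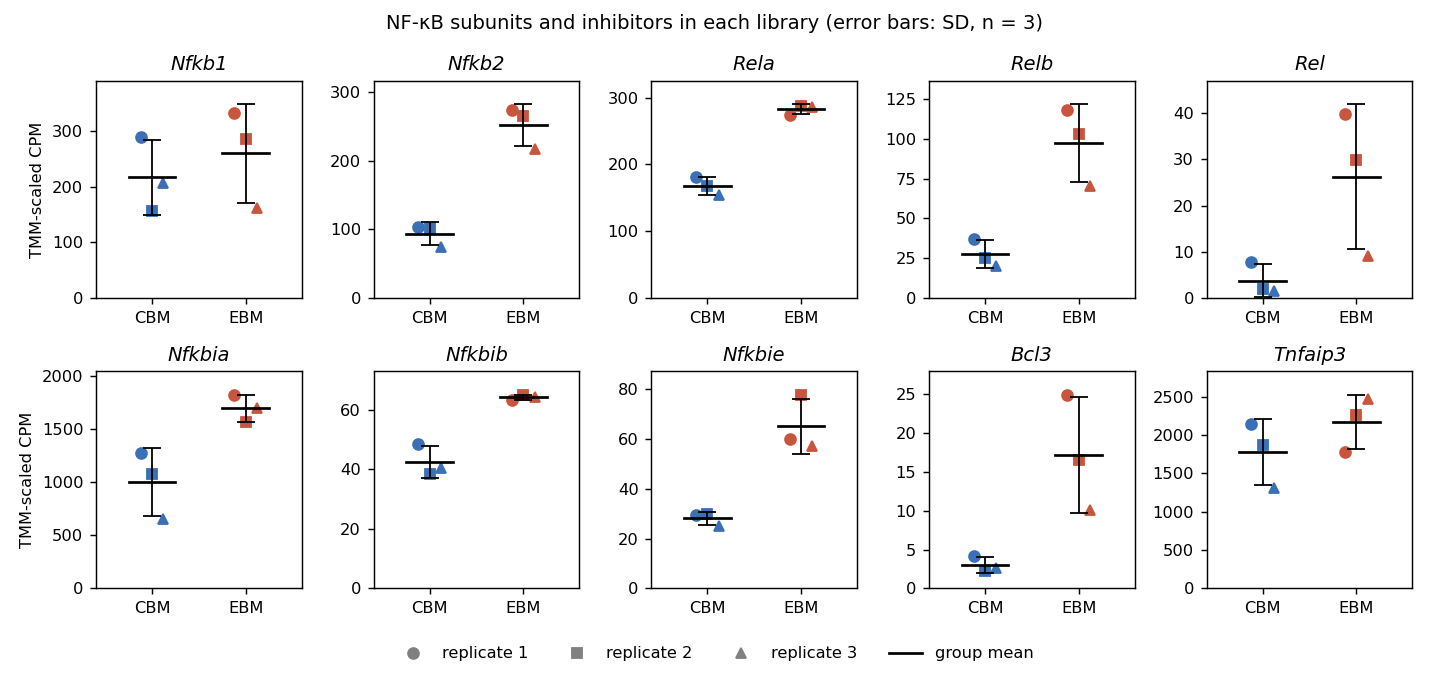
TMM-scaled CPM of the 10 genes in each library, with symbols for the replicate number, a line for the group mean and error bars for the SD (n = 3 in each group). In 8 panels the 3 EBM points lie above the 3 CBM points, and in those of Nfkb1 and Tnfaip3 they overlap.

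Among the subunits, Nfkb2, which encodes the precursor processed in the alternative route, was 104, 102 and 74.5 CPM in CBM replicates 1 to 3 and 274, 264 and 217 CPM in EBM replicates 1 to 3. The lowest EBM library was well above the highest CBM library. Mean CPM was 93.6 ± 16.5 over the CBM libraries and 252 ± 30.3 over the EBM libraries (SD, n = 3 each), a 2.69-fold difference with a log2 fold change of 1.43 (SE 0.16). Nfkb2 (ENSMUSG00000025225) lies on the plus strand of chr19:46304737-46312090 of mm10.

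Relb, its main partner, was 37.1, 25 and 20.3 CPM in CBM and 118, 103 and 70.4 CPM in EBM. The groups did not overlap, and the log2 fold change was 1.83 (SE 0.28), or 3.54-fold. Relb (ENSMUSG00000002983) lies on the minus strand of chr7:19606217-19629438.

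Rela, the main transactivating subunit of the classical route, was 181, 168 and 154 CPM in CBM and 274, 288 and 286 CPM in EBM. Its replicates were the closest of the 5 subunits in both regions, with the highest library of a region at most 1.18-fold above the lowest. The log2 fold change was 0.75 (SE 0.09), or 1.69-fold. Rela (ENSMUSG00000024927) lies on the plus strand of chr19:5637483-5648130.

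Rel, a transactivating subunit known mainly from lymphocytes, was the lowest of the subunits per length, as given below, and varied most. It was 7.80, 1.90 and 1.44 CPM in CBM, from 137, 36 and 29 counts, and 39.8, 29.8 and 9.06 CPM in EBM, from 721, 536 and 141 counts. EBM replicate 3 lay only just above CBM replicate 1, and the highest library was 5.42-fold above the lowest in CBM and 4.39-fold in EBM. The log2 fold change was 2.83 (SE 0.79), the largest of the 10 genes and the one with the largest error. Without CBM replicate 1 it was 3.97 and without EBM replicate 1 it was 2.40. Rel (ENSMUSG00000020275) lies on the minus strand of chr11:23736847-23770970.

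Nfkb1, which encodes the other precursor, did not separate the regions. It was 289, 156 and 207 CPM in CBM and 332, 287 and 161 CPM in EBM, so EBM replicate 3 lay below 2 of the CBM libraries. The log2 fold change of 0.26 was smaller than its SE of 0.32, and it was 0.05 without EBM replicate 1 and 0.52 without CBM replicate 1. Nfkb1 (ENSMUSG00000028163) lies on the minus strand of chr3:135584655-135691547.

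**Figure D2:**
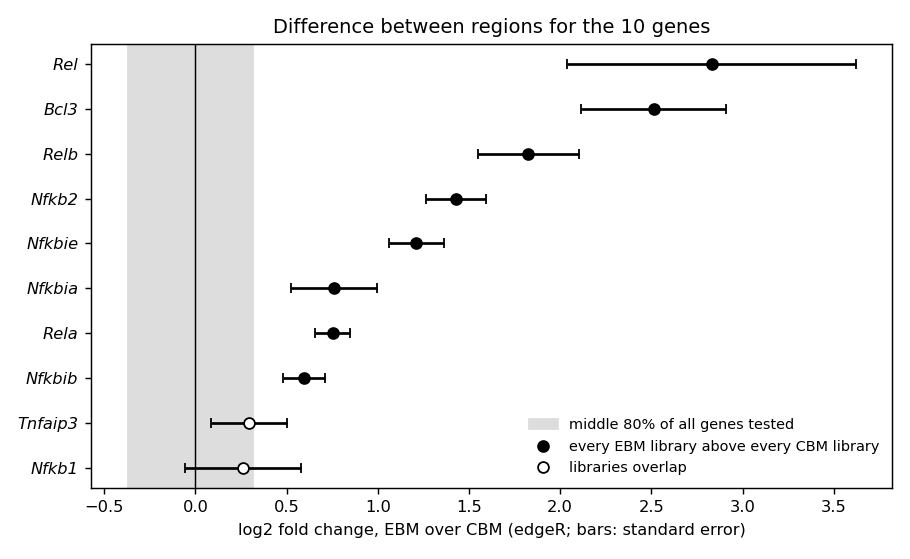
log2 fold change of EBM over CBM for each gene with its standard error from edgeR, filled where all EBM libraries exceeded all CBM libraries. The grey band from -0.37 to 0.32 holds the middle 80% of all genes tested. The points of Nfkb1 and Tnfaip3 lie inside the band and the other 8 lie to its right, up to 2.83 for Rel.

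Among the classical inhibitors, Nfkbia encodes the IκB that is degraded first on signalling and then resynthesised. It was 1275, 1077 and 653 CPM in CBM and 1821, 1566 and 1702 CPM in EBM. All EBM libraries were above the CBM libraries, which spread 1.95-fold among themselves. The log2 fold change was 0.76 (SE 0.24), or 1.69-fold. Nfkbia (ENSMUSG00000021025) lies on the minus strand of chr12:55489410-55492647.

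Nfkbie, an IκB that holds mainly Rela and Rel dimers, was 29.5, 29.8 and 25 CPM in CBM and 60.1, 77.8 and 57.1 CPM in EBM. The lowest EBM library was well above the highest CBM library, and the log2 fold change was 1.21 (SE 0.15), or 2.32-fold. Nfkbib, an IκB with slower turnover, was 48.5, 38.4 and 40.4 CPM in CBM and 63.2, 65.0 and 64.4 CPM in EBM. Its EBM libraries differed by only 1.03-fold, and the log2 fold change was 0.60 (SE 0.11), or 1.51-fold. Nfkbie (ENSMUSG00000023947) lies on the plus strand of chr17:45555703-45563169 and Nfkbib (ENSMUSG00000030595) on the minus strand of chr7:28758251-28767512.

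Bcl3, a nuclear IκB that joins dimers of the processed precursors on DNA rather than holding them in the cytoplasm, was 4.15, 2.26 and 2.63 CPM in CBM, from 73, 43 and 53 counts. In EBM it was 25, 16.5 and 10.1 CPM, from 452, 297 and 157 counts. The groups did not overlap, and the log2 fold change of 2.51 (SE 0.40), or 5.71-fold, was the second largest of the 10 genes. Bcl3 (ENSMUSG00000053175) lies on the minus strand of chr7:19808462-19822770.

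Tnfaip3 encodes a ubiquitin-editing enzyme that shuts off signalling upstream of the kinase complex. It was 2146, 1875 and 1304 CPM in CBM and 1786, 2270 and 2472 CPM in EBM. The regions overlapped, since EBM replicate 1 was below CBM replicates 1 and 2, and the log2 fold change was 0.29 (SE 0.21). By mean level per length it ranked 168 among the 13352 genes tested, and Nfkbia ranked 37. Tnfaip3 (ENSMUSG00000019850) lies on the minus strand of chr10:19000910-19015657.

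Some of these genes overlap others, and the sources do not say if counting was stranded. Nfkb2 shares its last 4 bases with Psd on the opposite strand. Bcl3 contains Gm16174 on the opposite strand, which had 5 to 25 counts in CBM and 21 to 49 in EBM, fewer than Bcl3 in every library. Within Nfkb1, Gm43430 on the same strand had 20 to 33 counts in CBM and 44 to 128 in EBM, against at least 2506 counts for Nfkb1. Nfkbib overlaps Sirt2 on the opposite strand by 778 bases. Sirt2 had 1125, 1311 and 1343 counts in CBM and 1440, 1342 and 1276 in EBM, more than Nfkbib in every library, and a log2 fold change of 0.24. How many reads of the shared bases were counted for Nfkbib was not tested.

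Levels between genes were compared per length, as CPM per kilobase of deposited gene length (RPKM). In CBM the order of mean RPKM was Nfkbia (622 ± 197), Tnfaip3 (246 ± 59.5), Rela (61.8 ± 4.99), Nfkb2 (28.4 ± 5.02), Nfkbib (19.6 ± 2.47), Nfkb1 (18.0 ± 5.57), Nfkbie (9.22 ± 0.889), Relb (7.07 ± 2.23), Bcl3 (1.22 ± 0.405) and Rel (0.497 ± 0.475), each an SD with n = 3. Neighbours whose libraries overlapped in this order were Nfkbib and Nfkb1, Nfkbie and Relb, and Bcl3 and Rel. In EBM Nfkbia (1054 ± 79.3), Tnfaip3 (301 ± 48.8), Rela (104 ± 2.73) and Nfkb2 (76.5 ± 9.22) again led. Nfkbib (29.6 ± 0.427), Relb (25 ± 6.30), Nfkb1 (21.5 ± 7.34) and Nfkbie (21.3 ± 3.66) followed, each overlapping the next, and Bcl3 (6.95 ± 3.01) and Rel (3.51 ± 2.10) came last and overlapped.

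**Figure D3:**
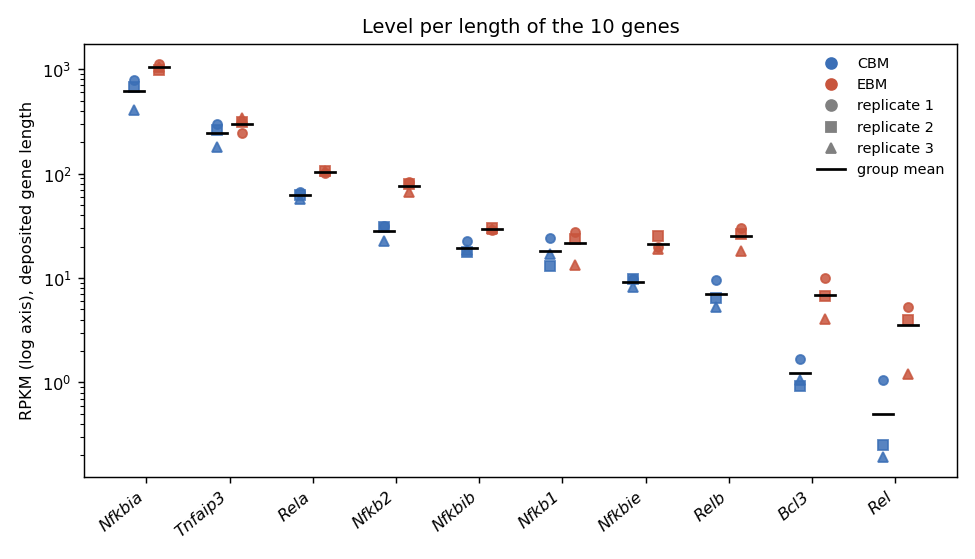
RPKM of each gene on a log axis, ordered by the CBM mean, with points for libraries and lines for group means. Nfkbia and Tnfaip3 stand above the subunits in both regions, and the distance between CBM and EBM is widest for the lowest genes, Bcl3 and Rel.

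The place of Nfkb1 in this order depends on its length. The deposited length is 12061 bases, whereas its longest coding transcript in GENCODE M21 has 4117. With the lengths of the longest coding transcripts Nfkb1 ranked 4 in CBM and 5 in EBM instead of 6 and 7. A ratio of 2 genes keeps its fold difference between the regions whatever the lengths, but sums and shares over several genes weight each gene by its length, so both sets of values are given for the shares.

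The 5 subunits summed to 133, 113 and 102 RPKM in CBM and 248, 241 and 204 RPKM in EBM, and the groups did not overlap. Rela held 53.6% ± 2.96 of the sum in CBM and 45.5% ± 5.56 in EBM, Nfkb2 24.5% ± 2.77 and 33.1% ± 0.676, Relb 6.01% ± 1.07 and 10.7% ± 1.73, and Nfkb1 15.4% ± 3.50 and 9.18% ± 2.37 (SD, n = 3 each). With the longest coding transcripts as lengths, the mean share of Rela was 41.1% in CBM and 37.8% in EBM, that of Nfkb2 16.1% and 23.4%, that of Relb 8.08% and 15.5%, and that of Nfkb1 34.3% and 22.1%. With either length the shares of Nfkb2 and Relb were higher, and that of Nfkb1 lower, in each EBM library than in any CBM library, and the share of Rela overlapped. The ratio of Nfkb2 to Nfkb1 was 1.32, 2.41 and 1.32 in CBM and 3.02, 3.38 and 4.95 in EBM. With the longest coding transcripts it was 0.385, 0.704 and 0.386 in CBM and 0.883, 0.987 and 1.44 in EBM. Its level therefore depends on the length used. The ratio of Relb to Rela was 0.143, 0.104 and 0.0922 in CBM and 0.301, 0.251 and 0.172 in EBM. Both ratios were higher in every EBM library than in any CBM library. They compare mRNA levels, and the use of the alternative or the classical route was not tested.

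The balance of inhibitors to subunits did not separate the regions. The summed RPKM of Nfkbia, Nfkbib and Nfkbie divided by that of the 5 subunits was 6.21, 6.18 and 4.25 in CBM and 4.77, 4.27 and 5.42 in EBM. Nfkbia alone stood at 11.9, 10.8 and 7.16 times Rela in CBM and 11.2, 9.18 and 10.0 times in EBM, so the ranges overlapped.

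The libraries of a region also differed over all genes tested. The first principal component, with 53.0% of the variance, placed CBM replicate 1 and EBM replicates 1 and 2 at -38.5, -36.4 and -19.8. It placed CBM replicates 2 and 3 and EBM replicate 3 at 42.9, 5.81 and 46.0, so it did not follow the regions. The second component did, with CBM replicates 1 to 3 at -22.8, -3.58 and -31.5 and EBM replicates 1 to 3 at 22.2, 20.9 and 14.8. CBM replicate 1 was the highest CBM library for 9 of the 10 genes and for 35.9% of all genes, and CBM replicate 3 was the lowest for 7 of the 10 and for 25% of all genes. EBM replicate 3, the lowest EBM library for 40.9% of all genes, was the lowest EBM library for 6 genes (Nfkb1, Nfkb2, Relb, Rel, Nfkbie and Bcl3), whereas it was the highest for Tnfaip3 and lay between the others for Rela, Nfkbia and Nfkbib. After subtracting each gene's mean log2 CPM over the 6 libraries, EBM replicate 3 stood at 0.51 for Nfkb2, 0.48 for Relb, 0.19 for Rel and -0.50 for Nfkb1, while EBM replicate 1 stood at 0.85, 1.23, 2.31 and 0.54. The dissociation genes also summed highest in CBM replicate 1 (9355 CPM) and lowest in CBM replicate 3 (3158 CPM), with 6922 to 8860 CPM in EBM, and Fosb alone made up 944 to 5011 CPM of these sums.

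**Figure D4:**
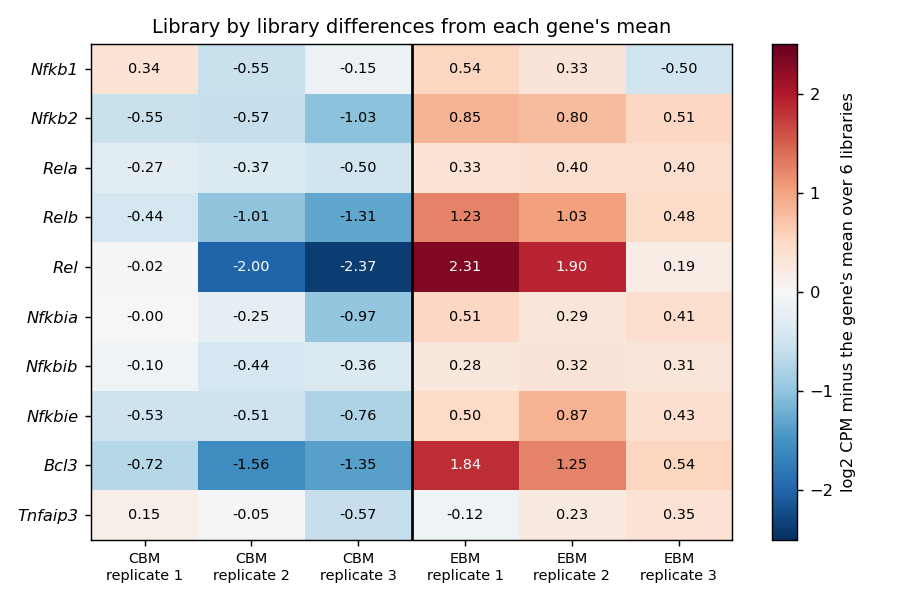
log2 CPM of each gene minus its mean over the 6 libraries, by library. Relb, Rel and Bcl3 carry the strongest colours, EBM replicate 3 is paler than EBM replicates 1 and 2 for these 3 genes, and Nfkb1 is above its mean in CBM replicate 1 and below it in EBM replicate 3.

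The genes whose profile over the 6 libraries was most like that of Nfkb2 were sought by the root mean square difference of centred log2 CPM. The 9 nearest of the other 13351 genes were Psd, Tmem88, Prkab2, Nr1d2, Neurl3, Nfkbie, Icam1, Mapk6 and Ninj1, with differences from 0.116 to 0.203 on the log2 scale. Psd, the convergent neighbour of Nfkb2, was 35.5, 38.7 and 24.8 CPM in CBM and 85.3, 78.1 and 67.4 CPM in EBM, with a log2 fold change of 1.22. Icam1, an adhesion molecule, was 107, 78.0 and 54.1 CPM in CBM and 239, 270 and 196 CPM in EBM. Of the other family genes, Nfkbie ranked 6 in this likeness, Relb 29, Nfkbia 60, Rela 67 and Nfkbib 154, while Tnfaip3 ranked 757, Bcl3 825, Nfkb1 2639 and Rel 12538. The measure responds to the size of a difference as well as its shape, and with Pearson correlation instead 1 of the 10 nearest genes, Psd, was shared.

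Other genes of the pathway were taken from a list of 82 genes ordered by role, of which 62 were tested. In edgeR's quasi-likelihood test 0 of them had an adjusted p under 0.05, and the smallest, 0.120, was that of Bcl10. At an unadjusted p under 0.05, 13 of the 62 genes (21%) were higher in EBM and 1 (1.61%) was lower, where 4.01% and 3.9% of all genes were. The median log2 fold change of the list was 0.04. DESeq2 called 8 of its genes at an adjusted p of 0.05, all higher in EBM, where it called 1.07% of all genes higher and 0.366% lower. The list was also chosen with earlier results of these data known, so these counts are a description and carry no weight of their own.

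The remaining IκB-like proteins stood with the family. Nfkbiz, a nuclear IκB, was 70.4, 37.6 and 35.0 CPM in CBM and 195, 229 and 154 CPM in EBM, a log2 fold change of 2.01 (SE 0.30, edgeR adjusted p = 0.157). Nfkbid, another nuclear IκB, was 71.0, 53.7 and 50.4 CPM in CBM and 126, 162 and 103 CPM in EBM, a log2 fold change of 1.16 (SE 0.20, edgeR adjusted p = 0.184). In both genes the EBM libraries all exceeded the CBM libraries.

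The kinases did not separate in this way. None of the 16 tested had an unadjusted p under 0.05 in edgeR, where 7.91% of all genes did in either direction. The EBM libraries were all below the CBM libraries for 2 of them, where 7.65% of all genes had this. With 16 genes such counts cannot be told apart from these shares. The median log2 fold change of the kinases was -0.02. Chuk had 99.8 ± 11.1 CPM over the CBM libraries and 94.1 ± 7.26 CPM over the EBM libraries (SD, n = 3 each), with a 95% interval of the log2 fold change from -0.36 to 0.19. For Ikbkb the interval was -0.36 to 0.22 and for Ikbkg -0.22 to 0.24. Map3k14 was 5.46 ± 2.97 and 6.19 ± 1.70 CPM, and its interval of -0.81 to 1.18 is wide enough to hold the log2 fold changes of Rela and Nfkbia.

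Among 19 adaptors and ubiquitin ligases tested, 6 had an unadjusted p under 0.05 and all 6 were higher in EBM. At that threshold 4.01% of all genes were higher. Bcl10, which links immune receptors to the kinase complex, was 65.7, 53.5 and 49.6 CPM in CBM and 103, 106 and 108 CPM in EBM, a log2 fold change of 0.91 (SE 0.12). Birc3, a ubiquitin ligase of TNF receptor signalling, had a log2 fold change of 1.33 (SE 0.30) and Traf1, a partner of it, 2.74 (SE 1.03). Traf1 was 7.63, 0.948 and 2.33 CPM in CBM and 43.4, 25.7 and 3.21 CPM in EBM, so its libraries overlapped. Traf2, Birc2 and Myd88 had log2 fold changes of 0.50, 0.41 and 0.32. Of the subunits of the ligase that marks IκB, Rbx1 alone had an unadjusted p under 0.05, with a log2 fold change of 0.31.

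Receptors were scarce. Of 17 receptor genes 13 were not tested, among them Tnfrsf1a and Tnfrsf1b, the TNF receptors, with at most 16 and 41 counts in a library. Il1r1, the receptor for interleukin 1, was 53.3, 54.2 and 47.7 CPM in CBM and 39.0, 45.1 and 32.3 CPM in EBM. It was the only list gene lower in EBM at an unadjusted p under 0.05, with a log2 fold change of -0.41 (SE 0.14, edgeR adjusted p = 0.545).

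Of 10 ligand genes 5 were tested, and the interleukin 1 genes differed most. Il1b was 33.0, 5.0 and 8.39 CPM in CBM and 208, 170 and 63.8 CPM in EBM, a log2 fold change of 3.26 (SE 0.79, edgeR adjusted p = 0.331). Il1a was 1.42, 0.474 and 0.248 CPM in CBM and 5.24, 6.79 and 1.61 CPM in EBM. Neither gene overlapped between the regions in CPM. Il1a had 25, 9 and 5 counts in CBM and 95, 122 and 25 in EBM, so CBM replicate 1 and EBM replicate 3 tied in counts. The neutrophil markers summed to 7.90, 224 and 3.37 CPM in CBM and 49.1, 160 and 34.3 CPM in EBM, and their part in the values of Il1b and Il1a was not tested. Tnf overlapped, with 17.8, 2.26 and 3.72 CPM in CBM and 21.2, 19.1 and 6.17 CPM in EBM.

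Of 11 further brakes on the pathway that were tested, 2 had an unadjusted p under 0.05. Both were higher in EBM, as were 4.01% of all genes at that threshold. Tnip1, which works with the Tnfaip3 product, was 60.8, 54.6 and 52.9 CPM in CBM and 93.2, 89.8 and 79.0 CPM in EBM, a log2 fold change of 0.64 (SE 0.11, edgeR adjusted p = 0.170). Tollip had a log2 fold change of 0.29 (SE 0.10).

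**Figure D5:**
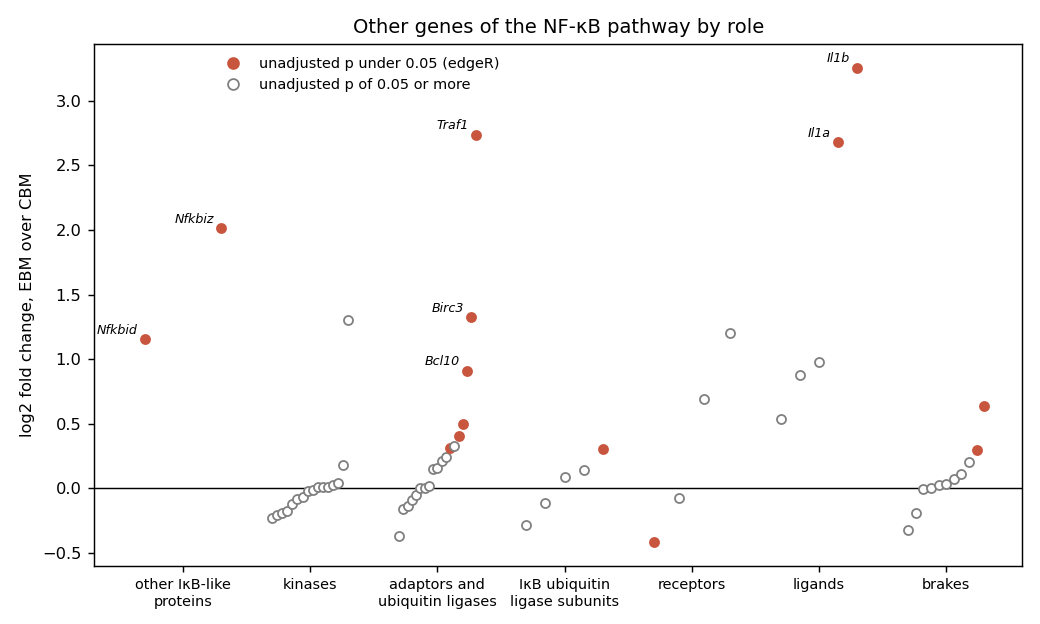
log2 fold change of EBM over CBM for the 62 tested genes of the pathway list by role, filled where the unadjusted p in edgeR was under 0.05. The 16 kinases have no filled point. Among the filled points, both IκB-like genes, the 2 interleukin 1 genes, Birc3 and Traf1 lie above 1.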

How the data were processed

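Bulk RNA-seq covered 3 CBM and 3 EBM libraries of AE9a leukemia cells. The authors made directional libraries from rRNA-depleted RNA (the labels give mRNA as library type), sequenced 150-bp paired-end reads and deposited raw counts per gene, without normalization. Their processing notes name HISAT2 2.0.5 and mm10; the counting tool and its strand setting are not given in the sources used here. The deposited gene length was used as given.

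Genes were kept by filterByExpr, scaled by TMM and tested in edgeR 4.0.16 (quasi-likelihood F-test, Benjamini-Hochberg adjustment over 13352 genes, threshold 0.05). A standard error is the absolute log2 fold change divided by the square root of F. Centred log2 CPM used a prior count of 2. Alternatives were DESeq2 1.42.0, limma-voom (limma 3.58.1), other scalings and filters, the replicate block and each library left out. No set test was run. The methods were tested on simulated data.

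Members and gene lists were chosen with earlier results of these data known. All 10 members, the list genes at an unadjusted p under 0.05, Chuk, Ikbkb, Ikbkg, Map3k14, the 10 genes nearest to Nfkb2 and marker genes could be named; Tnf, the TNF receptors and genes overlapping a member were named after their values were seen. Some named items are not reported here. Nothing states that libraries come from separate mice, so p-values measure the spread between libraries. Within a region the smallest chi-square between libraries, divided by its degrees of freedom, was 13.1, so none was a duplicate.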

Additional observations from a re-analysis of the deposited data

How the results depend on the processing

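Over the 13 alternatives all 10 family genes kept a positive log2 fold change. Each of the 130 values moved by less than 1 SD of that gene between replicates. This SD is wide for variable genes, so Rel could run from 2.40 to 3.97 and Nfkb1 from 0.05 to 0.52. Since the family was chosen by these values and the alternatives reuse the same libraries, the kept signs carry no weight of their own. Genes passing the adjusted threshold numbered 0 in edgeR (1056 passed unadjusted), 176 with DESeq2, of which 6 were in the family, and 40 in edgeR with no filter on low counts, of which 5 were (Nfkb2, Rela, Relb, Nfkbie and Bcl3). The number stayed 0 with limma-voom and with each library left out. The 1056 genes became 678 to 1136 with a library left out, 678 without CBM replicate 3 and 712 without EBM replicate 1. The pathway list's 13 higher genes became 10 to 14, and its 1 lower gene 0 to 2, being lost without CBM replicate 1 or EBM replicate 1. With library totals alone 5 list genes were lower, and the split of all genes at an unadjusted p was 340 higher to 884 lower instead of 535 to 521, with the median of all genes at -0.07. Among the 10 genes nearest to Nfkb2, 1 was shared when Pearson correlation was used. With longest coding transcripts, an alternative added after seeing the data, 5 of 10 genes kept their place in the order by level per length in CBM and 8 in EBM, and the shares of the subunits moved as given above. The causes were not tested.

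With the replicate number as a block 0 genes passed an adjusted p of 0.05, with 1203 at an unadjusted p, 14 of them higher and 1 lower in the pathway list. Deviations of same-numbered libraries correlated with r of 0.68, -0.20 and 0.20 across genes, and CBM replicate 2 correlated best with EBM replicate 3 (0.51). With so few libraries a region, these values cannot tell whether same-numbered libraries share a mouse. With the block 8 of the 10 family genes had an unadjusted p under 0.05, as without it, against 1203 of all 13352 genes tested. Since this contrast guided the choice of the genes, that count carries no weight of its own. Depth limits what can be said of the receptor genes with few counts.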
